A study of Mus musculus with 9 samples.

Results

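TLR adaptors and signalling kinases were followed in mouse peritoneal macrophages, elicited with thioglycollate. The set holds 10 genes taken by symbol: Myd88, Irak1, Map3k7, Tab1, Tab2, Ikbkb, Ikbkg, Tbk1, Ikbke and Map3k8. The platform annotation gives them 25 probe sets of the 22690 on the array, and 23 of these reached a log2 value of 6 on at least 1 array and were tested among 16746 such probe sets. The cells came from MyD88 KO mice, from TRIF KO mice and from wild-type mice. They were left unstimulated (0 h) or received 100 ng/ml lipopolysaccharide (LPS) for 1 h or 4 h, which gave 9 groups with 1 Affymetrix array each. The labels name no mouse strain background, age or allele, and they do not say whether the arrays of a genotype share mice. A difference of 2 arrays has no replicate check. Tests used an additive fit (limma), in which the 3 genotypes stand in for replicates of a time and the 3 times for replicates of a genotype, and adjusted p-values are Benjamini-Hochberg values over the 16746 probe sets.

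Toll-like receptors recognise microbial products, and the LPS receptor passes its signal to 2 adaptor proteins, MyD88 and TRIF. MyD88 recruits IRAK kinases, and the signal then reaches the kinase TAK1, encoded by Map3k7, with its partners TAB1 and TAB2. TAK1 activates the IKK complex, which releases NF-kB, and MAP kinase kinases. TRIF reaches the IKK-related kinases TBK1 and IKKε, encoded by Tbk1 and Ikbke, which phosphorylate the transcription factor IRF3. These proteins are controlled mainly by phosphorylation and ubiquitin, which arrays do not measure, so the values below concern transcripts only.

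The array medians lay between 7.01 and 7.065 (log2), and pairs of arrays correlated at 0.970 to 0.996 across the tested probe sets. The deposited values come from RMA, which includes quantile normalization, so near-equal medians do not show that the samples were alike. All 10 macrophage markers were well represented, with a summed level (log2 of the summed linear values) of 15.786 to 15.835 in MyD88 KO, 15.852 to 15.905 in TRIF KO and 15.828 to 15.914 in wild type. Such a sum follows the highest markers, and single markers differed. Mrc1 read 10.153 to 10.295 in MyD88 KO against 9.367 to 9.644 in wild type, and Adgre1 11.875 to 11.898 against 12.096 to 12.262. Mertk was lower at 4 h than at 0 h in each genotype (8.063 against 9.222 in wild type). Markers of mesothelial cells and fibroblasts had summed levels of 9.99 to 10.089 in MyD88 KO and 9.87 to 10.082 in TRIF KO, against 9.53 to 9.59 in wild type. Of their 8 measured markers, 6 reached log2 = 6, while Msln and Lum did not. The B cell markers lay at 9.89 to 10.102 in MyD88 KO, 9.84 to 9.96 in TRIF KO and 10.014 to 10.243 in wild type, with 5 of 6 reaching log2 = 6 and Pax5 below it. Ighm, the highest of them, weighs most in this sum and overlapped between MyD88 KO (8.584 to 9.017) and wild type (8.412 to 8.696). In MyD88 KO, Ms4a1 (7.085 to 7.177) and Cd79a (6.971 to 7.078) lay wholly below wild type (7.397 to 7.557 and 7.345 to 7.707). So did Blk, while Cd79b overlapped. The part of these cell types in the genotype differences below was not tested. In such bulk samples fewer cells of a type and less RNA per cell cannot be told apart.

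Most of the pathway's transcripts moved little, with few exceptions. Over the 9 arrays the 23 probe sets spanned a median of 0.37 on the log2 scale, against 0.325 for all tested probe sets. The smallest span was 0.15, for an Irak1 probe set, and the largest was 1.37, for Ikbke. On average over the genotypes, 4 probe sets of 3 genes rose at 4 h of LPS (Ikbke, Tbk1 by 2 probe sets, and Myd88) and 0 fell. These are 17.4% of the 23, where 4.69% of all tested probe sets rose and 5.82% fell. At 1 h, 0 passed by limma in either direction, against 0.221% of all probe sets that rose and 0% that fell. On average over the times, 4 probe sets of 4 genes were lower in MyD88 KO than in wild type (Map3k8, Myd88, Ikbke and 1 of 4 for Ikbkg) and 0 were higher, where 2.69% of all probe sets were lower and 3.88% higher. In TRIF KO 0 passed in either direction by limma, where 1.06% of all probe sets were higher and 0.418% lower. The 2 genotype comparisons share the wild-type arrays.

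**Figure D1:**
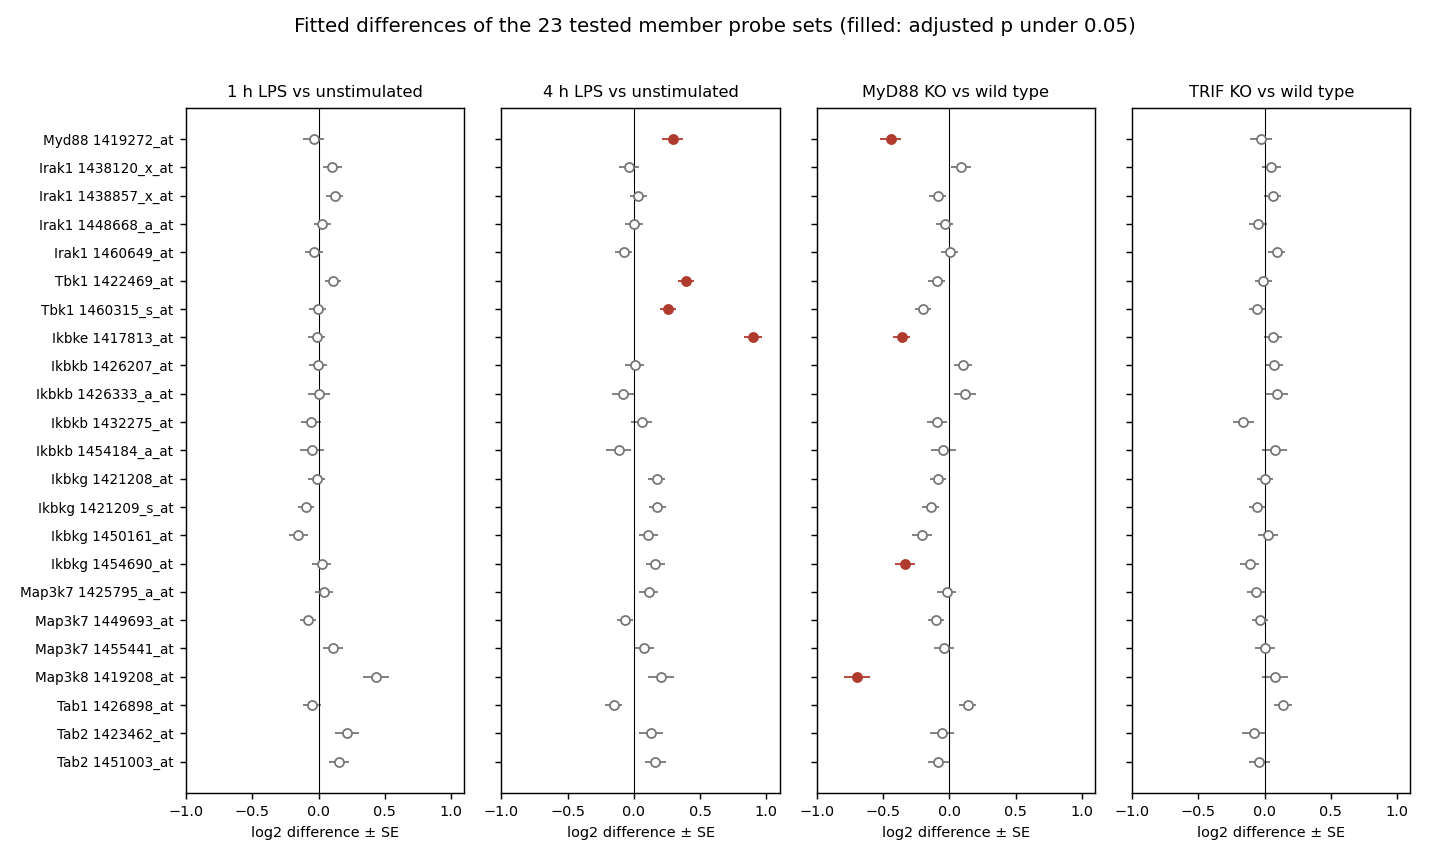
Log2 differences ± SE from the additive fit for the 23 tested probe sets, in 4 panels (x axis: log2 difference, y axis: gene and probe set; filled points have an adjusted p under 0.05). At 4 h of LPS Ikbke (0.90) lies farthest to the right, followed by the probe sets of Tbk1 (0.39 and 0.26) and Myd88 (0.29). Map3k8 lies farthest to the left in MyD88 KO (-0.69), and all points of TRIF KO lie between -0.16 and 0.14.

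The medians show the same small shifts. The 23 probe sets had a median difference of 0.11 at 4 h, against -0.01 for all tested probe sets, and of 0.00 at 1 h, against -0.01. In MyD88 KO the median was -0.09, against 0.00 for all probe sets, and in TRIF KO it was 0.00, against 0.01. MyD88 KO read below wild type at each of the 3 times for 11 of the 23, and 16.1% of all probe sets did so. These 11 come from 7 genes, with every Ikbkg probe set among them, and include the targeted gene Myd88. Probe sets of the same gene are not independent. For 1 (Tab1) MyD88 KO read above wild type at each time, against 17.7%. TRIF KO read below wild type at each time for 4, and 15.5% of all probe sets did so, and above it for 4, against 20.4%. The 4 h value lay above the unstimulated value in each genotype for 10, against 17.6%. It lay below in each genotype for 3, against 25.3%. The 3 values of MyD88 KO lay wholly below those of wild type for 5 (21.7%, against 7.08% of all probe sets) and wholly above for 0 (8.18%). These 5 come from 4 genes, Myd88 among them. Those of TRIF KO lay wholly above for 1 (6.09%) and wholly below for 0 (5.25%).

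Differences of 2 arrays were counted past 2-fold and past 0.5 on the log2 scale, in either direction and with no test. Past 2-fold there was no member in any of the 12 comparisons. Of all tested probe sets, 0.0717%, 0.119% and 0.185% passed 2-fold between 1 h of LPS and unstimulated cells in MyD88 KO, TRIF KO and wild type, and 0.466%, 0.436% and 1.68% at 4 h. Between MyD88 KO and wild type it was 0.275%, 0.358% and 0.758% at 0, 1 and 4 h, and between TRIF KO and wild type 0.137%, 0.149% and 0.382%. Past 0.5 the one member at 1 h was Map3k8, in TRIF KO (0.496% of all probe sets) and in wild type (1.20%), with none in MyD88 KO (0.543%). At 4 h it was Ikbke in each genotype, where 2.74% of all probe sets passed in MyD88 KO, 2.71% in TRIF KO and 7.33% in wild type. Between MyD88 KO and wild type no member passed 0.5 at 0 h (2.67%), Map3k8 did at 1 h (2.33%), and Myd88 and Map3k8 did at 4 h (5.23%). Between TRIF KO and wild type none passed, against 0.967%, 1.15% and 2.23% of all probe sets at 0, 1 and 4 h. The largest differences of 2 arrays were 0.95 below wild type, for Map3k8 in MyD88 KO at 1 h, and 0.94 above unstimulated cells, for Ikbke in wild type at 4 h.

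Myd88, the adaptor shared by most Toll-like receptors and by the receptors of the interleukin 1 family, was the targeted gene in MyD88 KO. It had a single probe set of its own, 1419272_at, so it could not be compared with a second probe set of the gene. In MyD88 KO its level was 9.30, 9.19 and 9.34 (log2) at 0, 1 and 4 h. In TRIF KO it was 9.56, 9.54 and 9.96, and in wild type 9.57, 9.58 and 10.002. All values of MyD88 KO lay below all values of the other genotypes, where 7.08% of all tested probe sets lay wholly below wild type, and the difference from wild type was -0.28 at 0 h, -0.39 at 1 h and -0.66 at 4 h. Over the times together, Myd88 was lower in MyD88 KO by a log2 difference of -0.44 ± 0.0808 (SE), or 0.736 times the wild-type level (limma, adjusted p = 0.00766, lower at 3 of 3 times). The sources used here do not place these probes relative to the deleted part of the gene, so the probe set may check nothing about the deletion. Without the wild-type 4 h array the difference was -0.38 (limma, adjusted p = 0.0519), and in a fit without time as a term the call was lost too (limma, adjusted p = 0.251). The gene of TRIF, Ticam1, was not analysed here.

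Myd88 also rose after 4 h of LPS on average over the genotypes. The response at 4 h was 0.04 in MyD88 KO, 0.41 in TRIF KO and 0.43 in wild type. On the TRIF KO and wild-type arrays, 95.7% and 90.1% of all tested probe sets moved by less than this, against 21.5% on the MyD88 KO arrays. At 1 h the responses were -0.10, -0.01 and 0.01 in the same order. The fitted rise at 4 h was 0.29 ± 0.0808 (limma, adjusted p = 0.0395, higher in 3 of 3 genotypes, though in MyD88 KO by only 0.04). Without the MyD88 KO arrays the rise was 0.42 (limma, adjusted p = 0.00472). With the wild-type arrays left out it was 0.22 (limma, adjusted p = 0.242), and with the TRIF KO arrays left out 0.24 (limma, adjusted p = 0.406). It did not pass with a floor at log2 = 6 either (limma, adjusted p = 0.0694). The call was lost in 7 of the 9 fits that left out 1 array, with adjusted p-values of 0.0526 without the MyD88 KO 1 h array to 0.222 without the wild-type 4 h array, and in the fit without genotype as a term (limma, adjusted p = 0.429). The difference in response between the genotypes was not tested, since each group has 1 array.

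**Figure D2:**
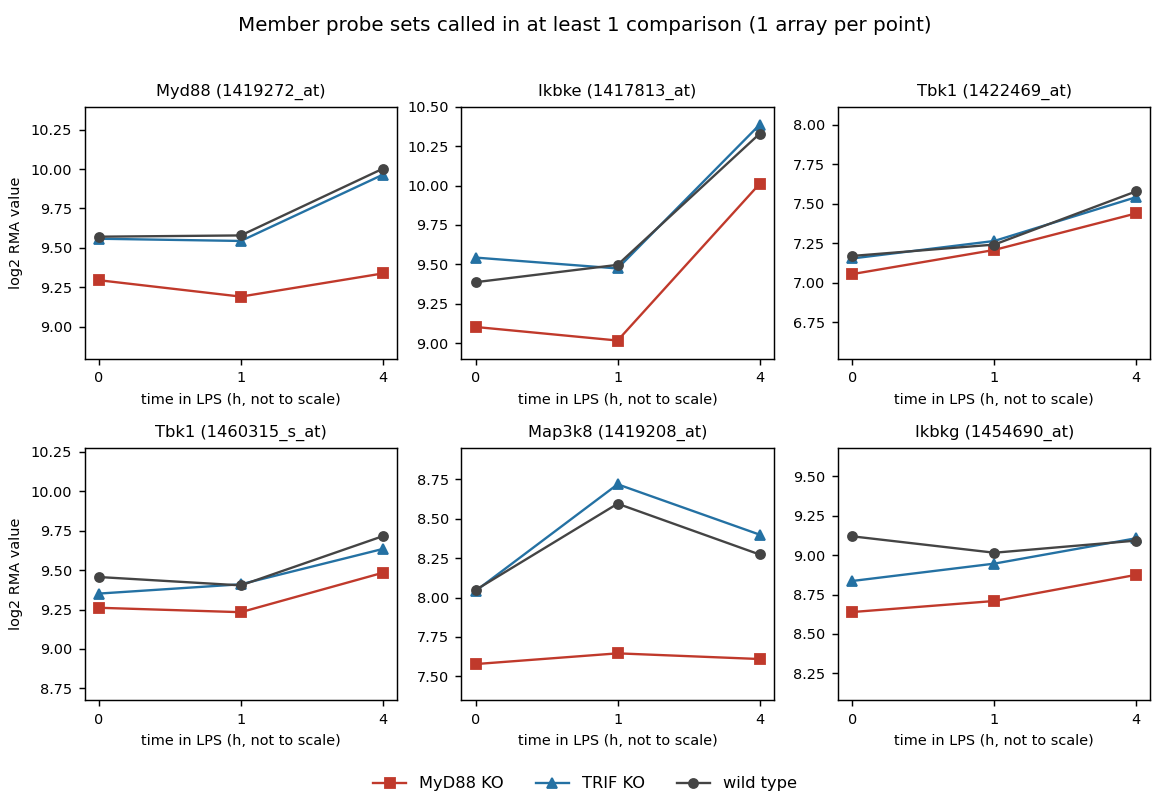
Log2 RMA value (y axis) at 0, 1 and 4 h of LPS (x axis, not to scale) for the 6 probe sets that passed in at least 1 comparison, with 1 array per point and a line per genotype. MyD88 KO lies lowest at every time in all 6 panels. Ikbke and Tbk1 rise at 4 h in each genotype, while Map3k8 stays between 7.58 and 7.65 in MyD88 KO and reaches 8.72 in TRIF KO and 8.60 in wild type at 1 h.

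Irak1, the kinase that MyD88 recruits through IRAK4, gave no change that passed. Its 4 probe sets spanned 0.15 to 0.35 over the 9 arrays. The probe set 1460649_at read 9.21, 9.12 and 9.16 at 0, 1 and 4 h in MyD88 KO cells, 9.28, 9.32 and 9.15 in TRIF KO cells, and 9.20, 9.15 and 9.14 in wild type. The genotypes overlap, while its 4 h values all lie below its unstimulated values, as did those of 13.6% of all tested probe sets. The 1 h values of 1438857_x_at all lie above its unstimulated values, as did those of 3.51%. Over the 4 probe sets the fitted differences lay between -0.03 and 0.12 at 1 h, -0.08 and 0.03 at 4 h, -0.09 and 0.09 in MyD88 KO, and -0.05 and 0.09 in TRIF KO. Signs differed between probe sets in every comparison. In Affymetrix naming, the ending _x_at of 1438120_x_at and 1438857_x_at marks probes that also match other sequences, and these probe sets had the lower unadjusted p-values at 1 h (0.184 and 0.0885, against 0.679 and 0.610).

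No probe set of the TAK1 complex passed in any of the 4 comparisons. Map3k7, the gene of TAK1 itself, had 5 probe sets, of which 1419988_at and 1426627_at lay below the filter, at 4.829 to 5.002 and 4.475 to 4.827. The other 3 differed by -0.08 to 0.11 at 1 h, -0.07 to 0.11 at 4 h, -0.10 to -0.02 in MyD88 KO and -0.06 to 0.01 in TRIF KO. The largest difference of an LPS array from its unstimulated array at 1 h was 0.28, for 1455441_at in wild type. The MyD88 KO values of 1449693_at all lie below those of wild type, as did 7.08% of all tested probe sets. The probe set 1425795_a_at, for example, read 8.12, 8.02 and 8.09 in MyD88 KO cells, 7.95, 8.06 and 8.10 in TRIF KO cells, and 7.99, 8.10 and 8.20 in wild type at 0, 1 and 4 h. Tab1, which binds and activates TAK1, had 1 probe set. It read 8.04, 7.85 and 7.81 in MyD88 KO cells, 7.93, 7.94 and 7.82 in TRIF KO cells, and 7.80, 7.82 and 7.67 in wild type. Its values in TRIF KO lay above all those of wild type, as did 6.09% of all tested probe sets, by a fitted difference of 0.14 ± 0.0665 (limma, adjusted p = 0.439). The fitted difference of MyD88 KO from wild type was likewise 0.14 (limma, adjusted p = 0.276), higher at 3 of 3 times, so the shift was not particular to TRIF KO. At 4 h the fitted difference of Tab1 was -0.15 (limma, adjusted p = 0.191), lower in 3 of 3 genotypes.

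Tab2, which links TAK1 to polyubiquitin chains, had 2 probe sets. The first, 1423462_at, read 9.04, 9.04 and 9.13 in MyD88 KO cells, 8.996, 9.21 and 8.93 in TRIF KO cells, and 8.87, 9.29 and 9.23 in wild type at 0, 1 and 4 h. The second, 1451003_at, read 8.83, 8.85 and 8.91 in MyD88 KO cells, 8.86, 8.94 and 8.92 in TRIF KO cells, and 8.71, 9.08 and 9.06 in wild type. In both, wild type had the lowest unstimulated value and the highest value at 1 h. The response at 1 h was 0.00 and 0.02 in MyD88 KO cells, 0.22 and 0.08 in TRIF KO cells, and 0.42 and 0.37 in wild type, and 97.5% and 95.7% of all probe sets moved by less on the wild-type arrays. At 4 h it was 0.09 and 0.08 in MyD88 KO cells, -0.07 and 0.06 in TRIF KO cells, and 0.36 and 0.35 in wild type. On average over the genotypes the difference did not pass at 1 h for either probe set (0.21 and 0.15; limma, adjusted p = 0.905 for both) or at 4 h (0.13 and 0.16; limma, adjusted p = 0.461 and 0.243). The wild-type response rests on 1 unstimulated array, and whether it differs from that of the knockouts was not tested.

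**Figure D3:**
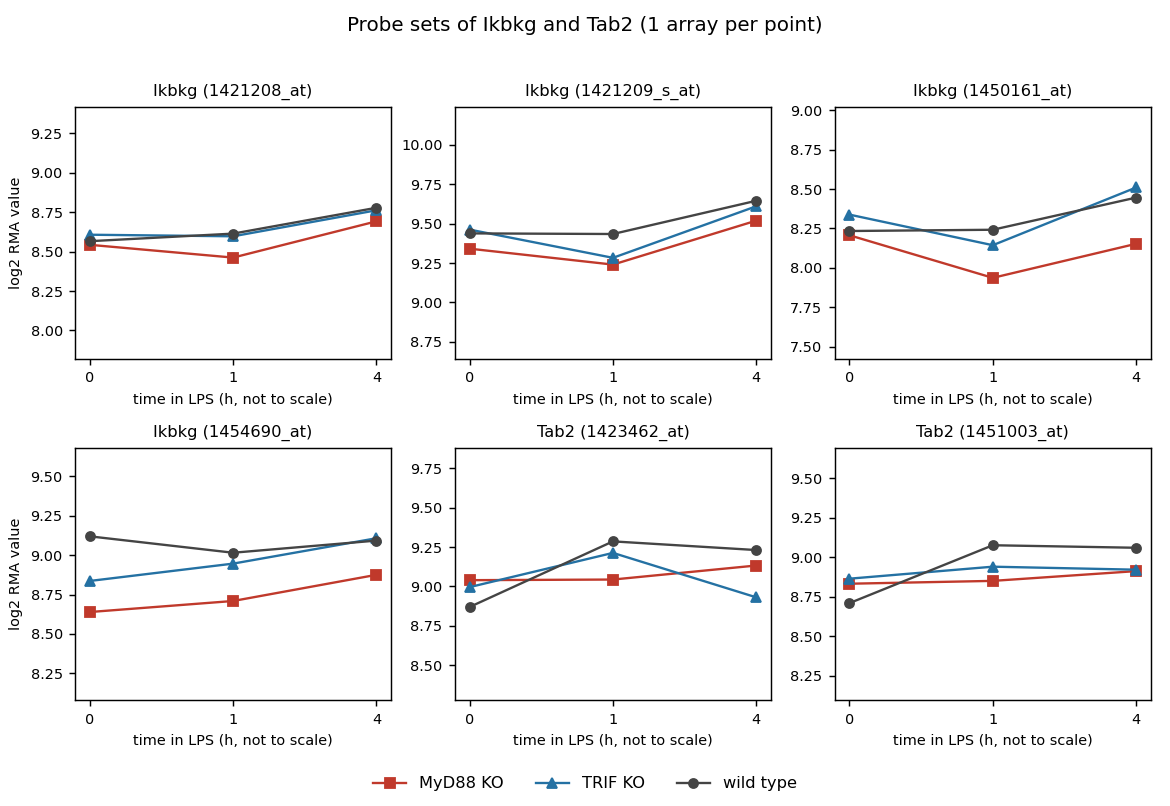
Log2 RMA value (y axis) at 0, 1 and 4 h of LPS (x axis, not to scale) for the 4 probe sets of Ikbkg and the 2 of Tab2, with 1 array per point and a line per genotype. The MyD88 KO line lies below the wild-type line at each time in all 4 Ikbkg panels. Both Tab2 panels show the wild-type line lowest at 0 h and highest at 1 h and 4 h.

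Ikbkb, the gene of IKKβ, which phosphorylates the inhibitors of NF-kB, had 4 probe sets and none passed in any comparison. Their fitted differences lay between -0.05 and 0.00 at 1 h, -0.12 and 0.06 at 4 h, -0.09 and 0.12 in MyD88 KO, and -0.16 and 0.09 in TRIF KO. The probe set 1426207_at read 9.15, 9.19 and 9.30 in MyD88 KO cells, 9.20, 9.21 and 9.13 in TRIF KO cells, and 9.15, 9.09 and 9.09 in wild type at 0, 1 and 4 h. The other 3 probe sets spanned 0.37 to 0.38 over the 9 arrays. In all 4 each knockout overlaps wild type, and the LPS arrays overlap the unstimulated ones.

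Ikbkg, the gene of NEMO, the ubiquitin-binding subunit that the IKK complex needs to be activated, read lower in MyD88 KO on all 4 of its probe sets. The fitted differences were -0.33 ± 0.0722 for 1454690_at, -0.21 for 1450161_at, -0.14 for 1421209_s_at and -0.09 for 1421208_at. Only the first passed (limma, adjusted p = 0.0184), and the other 3 had adjusted p-values of 0.132, 0.253 and 0.495 by limma. The probe set 1454690_at read 8.64, 8.71 and 8.88 in MyD88 KO cells, 8.84, 8.95 and 9.11 in TRIF KO cells, and 9.12, 9.02 and 9.09 in wild type at 0, 1 and 4 h. Its MyD88 KO values lie below all wild-type values, and so do those of 1450161_at, again against 7.08% of all tested probe sets. The call for 1454690_at was lost without the MyD88 KO 1 h array (limma, adjusted p = 0.0618), the MyD88 KO 4 h array (limma, adjusted p = 0.0553) or the wild-type 1 h array (limma, adjusted p = 0.0521), and in the fit without time as a term (limma, adjusted p = 0.150). Leaving out the TRIF KO arrays lost it too (limma, adjusted p = 0.0625). At 4 h all 4 probe sets had positive fitted differences, of 0.11 to 0.18, and none passed (limma, adjusted p = 0.109 to 0.437). The responses at 4 h were 0.15, 0.18, -0.055 and 0.235 in MyD88 KO cells, 0.155, 0.15, 0.17 and 0.27 in TRIF KO cells, and 0.21, 0.21, 0.21 and -0.03 in wild type for 1421208_at, 1421209_s_at, 1450161_at and 1454690_at. The one probe set without a positive response was 1454690_at in wild type and 1450161_at in MyD88 KO.

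Ikbke, the inducible kinase of the IKK-related pair, had the largest fitted LPS difference of the set. It read 9.10, 9.02 and 10.01 at 0, 1 and 4 h in MyD88 KO cells, 9.54, 9.47 and 10.4 in TRIF KO cells, and 9.39, 9.50 and 10.3 in wild type. Every 4 h array lies above every 0 h and 1 h array. The response at 4 h was 0.91 in MyD88 KO, 0.84 in TRIF KO and 0.94 in wild type, against -0.09, -0.07 and 0.11 at 1 h. On average Ikbke rose by 0.90 ± 0.0663 at 4 h, or 1.86-fold (limma, adjusted p = 1.14e-05, higher in 3 of 3 genotypes), and this call held in each of the 20 other settings, with differences of 0.85 to 0.93. Its level was also lower in MyD88 KO than in wild type at each time, by -0.28, -0.48 and -0.32, with a fitted difference of -0.36 ± 0.0663 (limma, adjusted p = 0.00801). That call held in each of the 9 fits without 1 array and was lost in the fit without time as a term (limma, adjusted p = 0.709). In TRIF KO the difference from wild type was 0.06 ± 0.0663 (limma, adjusted p = 0.762).

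Tbk1, the constitutive kinase of the pair, rose at 4 h on both of its probe sets. Its probe set 1422469_at read 7.05, 7.21 and 7.44 at 0, 1 and 4 h in MyD88 KO cells, 7.15, 7.26 and 7.54 in TRIF KO cells, and 7.17, 7.24 and 7.58 in wild type. Its probe set 1460315_s_at read 9.26, 9.23 and 9.48 in MyD88 KO cells, 9.35, 9.41 and 9.63 in TRIF KO cells, and 9.46, 9.40 and 9.72 in wild type. In both, the 3 arrays at 4 h lie above the 3 unstimulated arrays, as was the case for 8.57% of all tested probe sets. The response of 1422469_at at 4 h was 0.39 in each knockout and 0.41 in wild type, and that of 1460315_s_at was 0.22 in MyD88 KO, 0.28 in TRIF KO and 0.26 in wild type. On average Tbk1 rose by 0.39 ± 0.0614 (limma, adjusted p = 0.00183) and 0.26 ± 0.0620 (limma, adjusted p = 0.0216), or 1.31-fold and 1.19-fold, higher in 3 of 3 genotypes. The call of 1422469_at held in all 9 fits without 1 array. That of 1460315_s_at was lost in 4, without the MyD88 KO 4 h, TRIF KO 0 h, TRIF KO 4 h or wild-type 4 h array (limma, adjusted p = 0.0578 to 0.145), and in the fit without genotype as a term (limma, adjusted p = 0.135). Leaving out the arrays of wild type, MyD88 KO or TRIF KO gave rises of 0.25, 0.27 and 0.24. Each of these fits lost the call too (limma, adjusted p = 0.0776, 0.0532 and 0.300). The ending _s_at marks probes that match several transcripts. In MyD88 KO the fitted differences were -0.10 and -0.20 (limma, adjusted p = 0.438 and 0.0878). The second passed after the arrays were centred on reference transcripts (-0.25; limma, adjusted p = 0.0393) and after repeated quantile normalization (-0.23; limma, adjusted p = 0.0399).

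**Figure D4:**
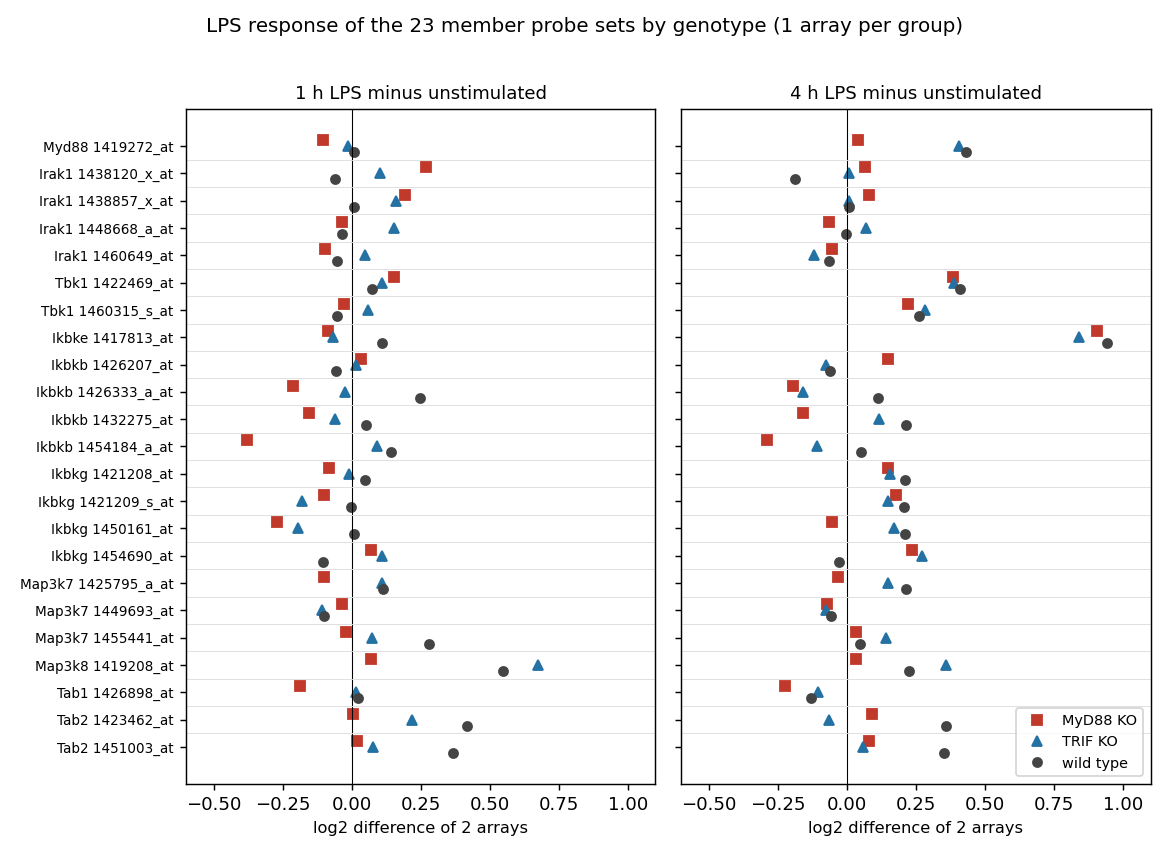
Log2 difference between an LPS array and the unstimulated array of the same genotype (x axis) for the 23 tested probe sets (y axis), at 1 h on the left and 4 h on the right, with 1 symbol per genotype. At 4 h the symbols of Ikbke lie together between 0.84 and 0.94, while those of Myd88 are split into 0.04 in MyD88 KO against 0.41 and 0.43. At 1 h Map3k8 stands at 0.07 in MyD88 KO, against 0.68 and 0.55 in TRIF KO and wild type.

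The promoters of the 3 genes that rose at 4 h are shown because these 3 genes are the members that passed there; their responses by genotype are those given above. The RefSeq promoter table holds 12 promoters of 7 of the 10 genes, and has none for Ikbkb, Map3k8 and Tab1. Each sequence below covers 250 bases before the annotated start of the gene and 50 after it, on the minus strand of GRCm38.p6, at chr9:119339969-119340268 for Myd88, chr1:131279514-131279813 for Ikbke and chr10:121586745-121587044 for Tbk1. Capitals mark matches on either strand to 4 motifs, which were chosen with the sequences in view. They are the NF-kB consensus, the core of the interferon response element, the interferon gamma activated site TTCNNNGAA and TGANTCA. The last is a loose form of the AP-1 site that allows any middle base, so a match need not be an AP-1 site.
Myd88: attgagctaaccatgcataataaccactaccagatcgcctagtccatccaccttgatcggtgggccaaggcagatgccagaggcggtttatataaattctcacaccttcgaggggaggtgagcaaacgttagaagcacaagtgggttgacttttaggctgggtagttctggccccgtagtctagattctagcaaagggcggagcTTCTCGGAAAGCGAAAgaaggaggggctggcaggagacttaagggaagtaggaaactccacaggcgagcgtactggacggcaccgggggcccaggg
Ikbke: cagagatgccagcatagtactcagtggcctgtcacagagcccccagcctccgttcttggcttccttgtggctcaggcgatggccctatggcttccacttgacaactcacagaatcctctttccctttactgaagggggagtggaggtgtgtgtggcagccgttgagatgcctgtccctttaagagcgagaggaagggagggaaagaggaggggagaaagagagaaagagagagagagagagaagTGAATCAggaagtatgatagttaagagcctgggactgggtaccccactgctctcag
Tbk1: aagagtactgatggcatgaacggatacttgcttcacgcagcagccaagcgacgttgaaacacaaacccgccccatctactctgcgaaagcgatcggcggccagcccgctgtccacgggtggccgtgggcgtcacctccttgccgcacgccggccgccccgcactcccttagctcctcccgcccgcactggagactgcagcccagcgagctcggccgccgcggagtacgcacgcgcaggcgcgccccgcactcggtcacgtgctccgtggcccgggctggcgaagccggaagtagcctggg
The Myd88 promoter holds TTCTCGGAA and, overlapping it, GAAAGCGAAA, so its capitals form 1 run. The response element core, whose match is the second of these, occurs in 3.44% of the 32851 promoters of the table and TTCNNNGAA in 8.30%. The Ikbke promoter holds TGAATCA, with A as its middle base, which ends on the first base of the gene. The loose form TGANTCA occurs in 7.81% of all promoters. The Tbk1 promoter, with 69.0% G and C against 54.0% in each of the other two, holds none of the 4 motifs. The NF-kB consensus, present in 8.46% of all promoters, is in none of these 3 windows. Among the other member promoters, TGANTCA matches were in 3 of Ikbkg, and NF-kB matches in 1 of Map3k7 and 2 of Irak1. These genes did not pass at 4 h. A match of letters is a description and says nothing about binding.

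Map3k8, the gene of TPL2, which activates the ERK arm of the MAP kinases once NF-kB1 p105 releases it, had the largest genotype difference of the set. It read 7.58, 7.65 and 7.61 at 0, 1 and 4 h in MyD88 KO cells, 8.04, 8.72 and 8.40 in TRIF KO cells, and 8.05, 8.60 and 8.27 in wild type. All MyD88 KO values lie below all values of the other genotypes, where 7.08% of all tested probe sets lay wholly below wild type. In TRIF KO and in wild type the 1 h array was the highest of the 3. The difference of MyD88 KO from wild type was -0.47 at 0 h, -0.95 at 1 h and -0.66 at 4 h. On average it was -0.69 ± 0.0980, or 0.618 times the wild-type level (limma, adjusted p = 0.00162, lower at 3 of 3 times), and the call held in all 9 fits without 1 array and was lost in the fit without time as a term (limma, adjusted p = 0.128). In TRIF KO the difference was 0.08 ± 0.0980 (limma, adjusted p = 0.798).

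Map3k8 was also the only member to differ by more than 0.5 from unstimulated cells at 1 h. The response at 1 h was 0.07 in MyD88 KO, 0.68 in TRIF KO and 0.55 in wild type, and 99.8% and 99.2% of all probe sets moved by less on the TRIF KO and wild-type arrays. At 4 h it was 0.03, 0.36 and 0.23. On average over the 3 genotypes the difference at 1 h was 0.43 ± 0.0980 and did not pass (limma, adjusted p = 0.207). Without the MyD88 KO arrays Map3k8 rose by 0.61 at 1 h (limma, adjusted p = 0.00411), and it also passed without the MyD88 KO 0 h array alone (0.56; limma, adjusted p = 0.0188) or the MyD88 KO 1 h array alone (0.57; limma, adjusted p = 0.0303). The difference in response between MyD88 KO and wild type at 1 h was -0.48, a size that 93.7% of all probe sets did not reach. It was -0.52 for Ikbkb 1454184_a_at (95.6%), -0.46 for Ikbkb 1426333_a_at (92.7%) and -0.41 for Tab2 1423462_at (89.3%). None of these was tested.

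Other genes of the pathway were counted on lists that hold no member, each gene by its probe set with the highest mean. Of 13 TRAF proteins and ubiquitin enzymes tested, 4 rose and 1 fell at 4 h, 1 rose at 1 h, and 3 were lower in MyD88 KO. The one that fell was Peli2, by a log2 difference of -0.29 (limma, adjusted p = 0.0184), and it is named after its values were seen. Birc3, a ubiquitin ligase that limits cell death, rose by 1.08 ± 0.0809 at 4 h (limma, adjusted p = 1.19e-05), with responses of 1.07, 0.89 and 1.29 in MyD88 KO, TRIF KO and wild type. Tnip1, which binds the deubiquitinase A20, rose by 1.05 (limma, adjusted p = 0.000360), and Tnfaip3, the gene of A20 itself, by 0.70 at 4 h (limma, adjusted p = 0.00570) and 0.82 at 1 h (limma, adjusted p = 0.0320). These 3 were lower in MyD88 KO by a log2 difference of -0.59, -0.51 and -0.70. Peli1, a ubiquitin ligase that acts on IRAK1 and on the TRIF pathway, rose by 0.74 (limma, adjusted p = 0.0318). Its response at 4 h was 1.03 in MyD88 KO, -0.001 in TRIF KO and 1.19 in wild type, a difference that was not tested.

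Of 8 tested partners of the IKK complex and of the IKK-related kinases, 2 rose at 4 h and 2 were higher in MyD88 KO. Tank, a scaffold that binds TBK1 and IKKε, rose by 0.57 at 4 h (limma, adjusted p = 0.00293), with responses of 0.61 in MyD88 KO, 0.28 in TRIF KO and 0.81 in wild type. Nfkbib, an inhibitor of NF-kB, rose by 0.69 (limma, adjusted p = 0.00155). Irf7, a transcription factor activated by the IKK-related kinases, was higher in MyD88 KO by 0.42 (limma, adjusted p = 0.0264), and Ikbip by 0.30 (limma, adjusted p = 0.0353). Ikbip read 5.92, 5.94 and 5.86 in wild type, all under the filter of log2 = 6, so it was tested only because the knockout arrays reached it. Of 14 tested genes of the MAP kinase cascade, 2 rose at 4 h, and in MyD88 KO 1 was higher and 1 lower. Mapkapk2, the kinase MK2 downstream of p38, rose by 1.03 ± 0.0743 (limma, adjusted p = 1.13e-05), with responses of 1.02, 0.87 and 1.19 in MyD88 KO, TRIF KO and wild type, and was lower in MyD88 KO by -0.36 (limma, adjusted p = 0.0141). Mapk14, the gene of p38α, rose by 0.34 (limma, adjusted p = 0.0191), and Map3k1 was higher in MyD88 KO by 0.32 (limma, adjusted p = 0.0250). Tirap and Tollip, the 2 tested genes among the other adaptors and IRAK regulators, passed in none of the 4 comparisons. In TRIF KO 0 genes of these lists passed by limma, where 1.06% of all tested probe sets were higher and 0.418% lower.

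Ikbke and Map3k8 were the members whose 9 values spanned at least 1, and the probe sets nearest to each were sought by the root mean square difference of centred log2 values over the 9 arrays. Nearest to Ikbke were both probe sets of Abcc1, a membrane exporter of glutathione conjugates, at 0.0433 and 0.0831. Probe sets of Tshz1, Spred1 and Ext1 followed at 0.117, 0.121 and 0.129. The nearest to Map3k8 were less close, with Ccnl1 at 0.189, Cadm1 at 0.206 and 0.221, Pdlim5 at 0.211 and Trim13 at 0.219. These distances describe 9 arrays that share unstimulated cells and genotypes, and they were not tested.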

How the data were processed

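Biotin-labelled RNA was measured on Affymetrix arrays, 1 for each of 3 genotypes and 3 times. The authors deposited log2 values per probe set. These come from RMA, according to the submitters' processing notes, a method of background correction, quantile normalization and summary over a set's probes. The sources used here do not give its version or whether all 9 arrays were normalized together. No value was missing, and all were used as deposited.

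Probe sets were named from the platform annotation through gene identifiers in the RefSeq table of GRCm38.p6. One symbol was given for 20393, several for 691 and none for 1606, and probe sets with several or none named no gene. Probe sets under log2 = 6 on all arrays were left out, which kept 16746. The fit was limma 3.58.1 (lmFit and eBayes, no trend; R 4.3.3) with genotype and time and no interaction. Residual degrees of freedom were 4, with 7.51 more from the prior. The fit was also run on simulated data with independent noise and additive shifts. Such data cannot test the effect of an interaction or of mice shared between arrays. Tests were two-sided at a Benjamini-Hochberg threshold of 0.05. The labels name no separate animals or cultures for the arrays. The p-values thus cover the spread among these arrays alone, and it may be technical. A response that differs between genotypes enlarges the error. Named were all probe sets of the 10 genes, up to 3 passing genes per other list and comparison, and the 5 probe sets nearest to each member spanning at least 1. The members and lists were chosen with earlier results of these data known. Alternatives were other filters, a floor at log2 = 6, centring on reference transcripts, repeated quantile normalization, an intensity trend, 1 row per gene, a fit without the other factor, and leaving out arrays or genotypes. No coordinates are given for probe sets, since no build is named for them. Marker lists for neutrophils, T or NK cells, eosinophils and mast cells, and dendritic cells were measured too; their summed levels overlapped between MyD88 KO and wild type.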

Additional observations from a re-analysis of the deposited data

Results flagged for a closer look

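For several probe sets of the set the LPS arrays of 1 genotype lay above its unstimulated array at 1 h and 4 h, while those of another lay below it. Each response is the difference of 2 arrays, and the difference between genotypes was not tested. The share of all tested probe sets with such opposite signs was not counted. In size, the differences of MyD88 KO from wild type below exceeded those of 58.8% to 85.0% of all tested probe sets. Those of TRIF KO from wild type exceeded 31.6% to 87.8%, so such sizes were common on these arrays. At 4 h the response in MyD88 KO minus that in wild type was 0.256 for Irak1 1438120_x_at and 0.211 for Ikbkb 1426207_at, both above unstimulated cells in MyD88 KO and below them in wild type. It was -0.307, -0.373 and -0.339 for Ikbkb 1426333_a_at, 1432275_at and 1454184_a_at, which were below unstimulated cells in MyD88 KO and above them in wild type. For Ikbkg it was -0.267 for 1450161_at and 0.262 for 1454690_at, which ran opposite ways. For Map3k7 1425795_a_at it was -0.245. The response in TRIF KO minus that in wild type was 0.198 for Irak1 1438120_x_at, 0.072 for Irak1 1448668_a_at, -0.272 for Ikbkb 1426333_a_at and 0.299 for Ikbkg 1454690_at. The response in MyD88 KO minus that in TRIF KO was -0.132 for Irak1 1448668_a_at and -0.181 for Map3k7 1425795_a_at. Probe sets of the same gene went opposite ways for Ikbkb and Ikbkg.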

How the results depend on the processing

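No paired analysis was possible because each group has 1 array, so that replicate numbers pair nothing. The additive fit itself compares times within genotypes and genotypes within times, and the fit without the other factor is its unmatched counterpart. Under other settings, results of single probe sets kept their side of the threshold 1656 times, lost it 28 times, gained it 8 times and reversed 0 times. Most of the kept results had not passed in the main fit, and all 28 losses fell on results that had. The 4 h rise of Myd88 passed in 9 of 20 other settings and that of Tbk1 1460315_s_at in 12 of 20. The MyD88 KO difference of Ikbkg 1454690_at passed in 12 of 17. The 4 h rise of Ikbke and of Tbk1 1422469_at passed in every setting in which they were tested. When 1 array was left out, the members passing numbered 0 to 1 at 1 h, 2 to 5 at 4 h, 3 to 5 in MyD88 KO and 0 in TRIF KO. All probe sets passing then numbered 8 to 52 higher and 0 to 2 lower at 1 h, 452 to 810 and 362 to 1182 at 4 h, 240 to 927 and 195 to 483 in MyD88 KO, and 66 to 277 and 24 to 102 in TRIF KO. A fit without the other factor passed 0 members in MyD88 KO and 2 at 4 h; over all probe sets it passed 1 higher at 1 h, 257 higher and 220 lower at 4 h, 111 and 38 in MyD88 KO, and 67 and 26 in TRIF KO. Without the wild-type arrays 12 were higher at 1 h, and 478 higher and 363 lower at 4 h, with 2 members. Without the MyD88 KO arrays 83 were higher and 5 lower at 1 h, with 1 member. Without the TRIF KO arrays 474 were higher and 306 lower at 4 h, with 2 members, and 320 and 246 in MyD88 KO. A floor at log2 = 6 left 7 higher at 1 h, 281 lower in MyD88 KO, and 95 and 34 in TRIF KO. With 1 row per gene, which tests fewer features, 464 were higher at 4 h, 270 lower in MyD88 KO, and 118 and 42 in TRIF KO. Centring on reference transcripts left 649 lower at 4 h and 357 higher in MyD88 KO. It put 2 members past 0.5 at 1 h in wild type, 1 past 2-fold at 4 h in wild type, and, at 1 h in MyD88 KO against wild type, 1 past 2-fold and 2 past 0.5 (also 2 after repeated quantile normalization). Where no fewer features or arrays were fitted, the cause was not tested. The number of arrays limits all of this.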
